A study of Mus musculus with 6 samples.

Results

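The genes described here are 33 genes of cholesterol synthesis and its regulation, among 43629 genes in the deposited tables. They were chosen by name, with earlier results of these data known. The set holds 18 enzymes that make cholesterol, 5 genes of the SREBP system that controls them, 5 genes of sterol transport and of the LXR receptors, and 5 enzymes of fatty acid synthesis that share the SREBP system. All 33 were found, and all 33 passed the filter on low counts, the least covered being Nr1h3 with at least 103 expected counts in every library. They were compared by RNA-seq between dermal fibroblasts with a constitutively active Nrf2 and control fibroblasts.

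Dermal fibroblasts, the collagen-making cells of the skin, were taken from newborn mice and grown for 6 days to passage 1. The caNrf2 group is 3 libraries from mice with Col1a2Cre and the caNrf2 transgene, and the ctrl group is 3 libraries from mice with Col1a2Cre only, so both groups express Cre. Cre is driven in fibroblasts by the Col1a2 promoter, and all mice had a mixed background of 50% C57Bl/6 and 50% FVB/N. Nrf2, encoded by Nfe2l2, is a transcription factor that drives antioxidant and detoxification genes. According to the design text, 3 mice stand behind each group. The labels do not tie each library to a mouse, and if libraries of a group share a source, p-values measure only the spread between these samples.

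Cells make cholesterol from acetyl-CoA. The mevalonate arm yields the isoprenoid farnesyl pyrophosphate, squalene is then built and closed to lanosterol, and lanosterol is trimmed step by step to cholesterol. The genes of these enzymes are switched on by SREBP-2, and those of fatty acid synthesis mainly by SREBP-1. SCAP escorts both from the endoplasmic reticulum to the Golgi when sterols are low, and INSIG proteins hold SCAP back when sterols are high. LXR receptors bind oxysterols and switch on sterol export. In skin, cholesterol is a main lipid of the barrier, and fibroblasts in culture both make it and take it up.

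Total expected counts were 30168400 to 45164208 per library, so that 1 read equals 0.0223 to 0.0331 CPM, the reads of a gene as a share of the library, scaled to a fixed total. Nfe2l2 had 380 ± 43.2 CPM in caNrf2 and 109 ± 5.87 CPM in ctrl (SD, n = 3 each), and Nqo1, a detoxification enzyme and a known Nrf2 target, had 661 ± 78.6 CPM in caNrf2 and 26.1 ± 3.09 CPM in ctrl. Reads of endogenous Nfe2l2 and of the transgene cannot be told apart. The first principal component of log2 CPM (65.0% of the variance) separated the genotypes. On the second (14.6%) replicate 1 of both groups stood apart, with scores of 31.2 for caNrf2 and 25.9 for ctrl, while the other 4 libraries lay between -19.6 and -8.88. Calls of the 33 genes that depend on these 2 libraries are given with and without them.

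Of 15 macrophage and leukocyte markers 14 were higher in caNrf2, with a summed level of 166 to 199 CPM in caNrf2 libraries and 23.1 to 64.7 CPM in ctrl libraries. Lyz2, a lysozyme and the most abundant of them, averaged 97.6 CPM in caNrf2 and 26.5 CPM in ctrl. Cd53, a leukocyte membrane protein, averaged 2.85 CPM in caNrf2 and 0.693 CPM in ctrl. Of 10 tested skeletal muscle markers 7 were higher (summed 174 to 248 CPM in caNrf2, 128 to 139 CPM in ctrl), led by Myh3 at 75.1 CPM in caNrf2 and 47.3 CPM in ctrl, with Acta1 at 43.9 CPM in caNrf2 and 24.5 CPM in ctrl. Summed adipocyte markers reached 131 to 201 CPM in caNrf2 and 120 to 147 CPM in ctrl. Of 9 tested, Cebpa and Cd36, named after its values were seen, were higher and Pparg lower, with Cebpa at 75.3 CPM in caNrf2 and 43.6 CPM in ctrl and Pparg at 12.9 CPM in caNrf2 and 22.1 CPM in ctrl. Keratinocyte and sebocyte markers summed to 241 to 406 CPM in caNrf2 and 177 to 288 CPM in ctrl, and of 10 tested 1 was called higher, Krt14 (121 CPM in caNrf2 and 72.5 CPM in ctrl). Krt14 lost its call without ctrl 2, ctrl 3, caNrf2 2 or caNrf2 3 (log2 fold changes of 0.59, 0.67, 0.59 and 0.74). Krt5 averaged 135 CPM in caNrf2 and 86.4 CPM in ctrl and was not called (log2 fold change 0.64). It was called higher without ctrl 1 (0.89), caNrf2 1 (0.84) or replicate 1 of both groups (1.09), and with no filter on low counts (0.64). Endothelial markers summed to 9.96 to 11.9 CPM in caNrf2 and 8.06 to 11.1 CPM in ctrl, and of 6 tested Cdh5 was higher (4.48 CPM in caNrf2 and 2.16 CPM in ctrl), a call it lost without caNrf2 2 (log2 fold change 0.93). Of those 6, 4 had a positive and 2 a negative log2 fold change. The 2 negative ones were not called and were named after their values were seen. Kdr averaged 1.40 CPM in caNrf2 and 2.22 CPM in ctrl, and Tek 2.48 CPM in caNrf2 and 3.34 CPM in ctrl. Lep and Myf5 were at 0 in every ctrl library and Mc5r in 1 of them. Of 10 fibroblast markers 4 were lower and 2 higher. They were abundant throughout. Col1a1, lower in caNrf2, was at 11967 CPM in caNrf2 and 17603 CPM in ctrl. Col1a2, also lower in caNrf2, was at 8355 CPM in caNrf2 and 13544 CPM in ctrl. The 2 higher markers, Pdgfra and Thy1, were named after their values were seen. Pdgfra averaged 1139 CPM in caNrf2 and 855 CPM in ctrl, and Thy1 640 CPM in caNrf2 and 484 CPM in ctrl. Col1a1 lost its call without ctrl 2 (-0.52), ctrl 3 (-0.44), caNrf2 1 (-0.56), caNrf2 2 (-0.52) or caNrf2 3 (-0.61), as log2 fold changes. In bulk RNA, fewer cells of a type and less RNA per cell cannot be told apart. The part of these markers in the changes below was not tested.

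Genes were tested by edgeR's quasi-likelihood test, and one is called higher or lower at a Benjamini-Hochberg adjusted p under 0.05 over 15341 genes. The share called among all of them was 21.5%, with 12.5% higher and 9.03% lower in the caNrf2 libraries. Of the 33 genes, 11 were lower, 2 were higher and 20 were not called. The median log2 fold change of the 33, caNrf2 over ctrl, was -0.28, against -0.0031 over all genes tested. The genes were chosen with earlier results of these data known, so the contrast with all genes is a description, not a test. The 11 lower genes were Hmgcs1, Mvd, Fdps, Sqle, Lss, Cyp51, Tm7sf2, Sc5d, Insig1, Stard4 and Acaca, and the 2 higher genes were Insig2 and Nr1h2. All 3 caNrf2 libraries lay below all 3 ctrl libraries for 18 of the 33 genes and above them for 3, so that 21 did not overlap; over all genes tested these shares were 20.1% below, 22.0% above and 42.1% in either direction. These counts depended on single libraries. Without caNrf2 replicate 2, 3 genes were called lower and 1 higher, and without ctrl replicate 1 or ctrl replicate 2, 6 were called lower. Without caNrf2 replicate 1, and without ctrl replicate 1, 1 gene was called higher. Without replicate 1 of both groups, 13 were lower and 3 higher.

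**Figure D1:**
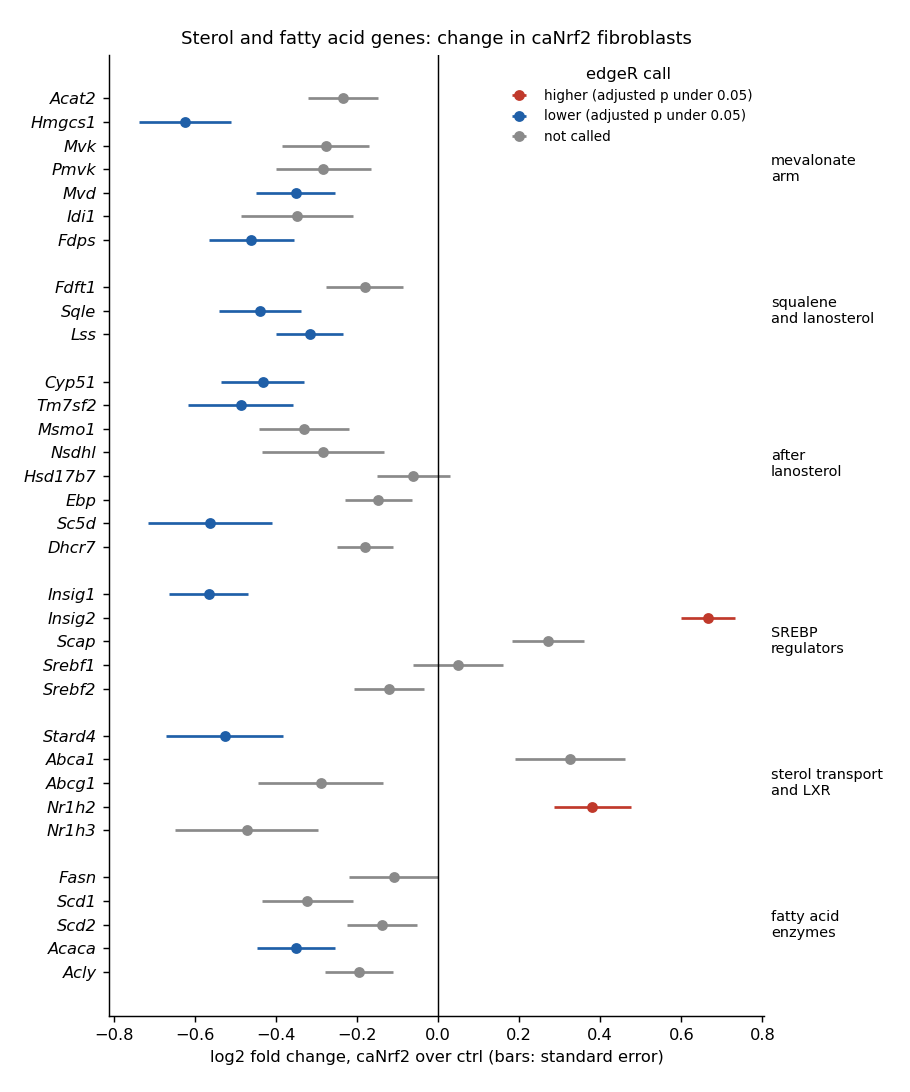
Log2 fold change of each of the 33 genes, caNrf2 over ctrl, on the horizontal axis, with bars for the standard error from edgeR (n = 3 libraries per group). Blue points are called lower, red points higher and grey points not called; the 18 enzymes of the first 3 groups all lie left of 0, and Insig2 and Insig1 stand at 0.67 and -0.57.

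The promoters of 4 genes are shown. Insig2, Hmgcs1 and Insig1 had the largest log2 fold changes of the 33 in size, and Mvk shares its promoter region with Mmab, a neighbouring gene described below. RefSeq promoter windows (GRCm38.p6, 250 bases before to 50 bases after each transcription start) were available for 26 of the 33 genes, in 35 windows. Abcg1, Fdft1, Fdps, Scd1, Scd2, Sqle and Stard4 had no entry. The windows were searched on both strands for the sterol regulatory element TCACNCCAC, bound by SREBPs, the NF-Y box CCAAT, bound by a cofactor of SREBPs, and the antioxidant response element TGACNNNGC, bound by Nrf2. The 3 motifs were read independently, so a base may belong to more than 1 of them. Capitals mark the matches.
Hmgcs1 (chr13:119690101-119690400, + strand): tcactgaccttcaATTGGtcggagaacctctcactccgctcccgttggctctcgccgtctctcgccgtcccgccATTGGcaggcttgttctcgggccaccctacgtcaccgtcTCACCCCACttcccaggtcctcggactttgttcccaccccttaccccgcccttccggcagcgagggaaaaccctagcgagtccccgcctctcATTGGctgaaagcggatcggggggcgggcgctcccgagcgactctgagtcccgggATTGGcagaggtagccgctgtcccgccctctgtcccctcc
Insig1 (chr5:28071162-28071461, + strand): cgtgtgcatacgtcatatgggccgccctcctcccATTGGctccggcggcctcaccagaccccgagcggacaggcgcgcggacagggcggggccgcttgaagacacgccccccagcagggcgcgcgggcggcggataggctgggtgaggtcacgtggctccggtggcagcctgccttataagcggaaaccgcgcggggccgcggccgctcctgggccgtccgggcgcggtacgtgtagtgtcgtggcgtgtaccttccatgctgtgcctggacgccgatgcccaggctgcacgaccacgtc
Insig2 (chr1:121327975-121328274, - strand): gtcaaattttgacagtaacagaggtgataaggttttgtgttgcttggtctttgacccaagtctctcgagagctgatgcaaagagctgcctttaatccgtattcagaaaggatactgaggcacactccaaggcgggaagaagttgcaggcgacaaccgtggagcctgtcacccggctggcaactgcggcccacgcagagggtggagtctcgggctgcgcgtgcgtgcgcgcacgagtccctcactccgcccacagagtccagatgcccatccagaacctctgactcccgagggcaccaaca
Mvk (chr5:114444019-114444318, + strand): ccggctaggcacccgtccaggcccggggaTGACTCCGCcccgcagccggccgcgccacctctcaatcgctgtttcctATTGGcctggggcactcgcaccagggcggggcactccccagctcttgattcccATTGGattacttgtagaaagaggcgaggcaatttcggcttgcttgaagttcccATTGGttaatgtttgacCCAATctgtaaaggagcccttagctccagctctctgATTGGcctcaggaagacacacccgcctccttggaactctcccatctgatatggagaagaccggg

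The sterol regulatory element was found in 1 of the 35 windows, that of Hmgcs1, at -137 from the start, with 4 NF-Y boxes in the same window. Of all 32851 windows in the table, 1.24% held it, and 2.86% of these 35. The NF-Y box stood in 21 of 35 windows (60.0%) and in 37.4% of all windows. By gene, counting a match in any of its windows, it stood in 20 of 26 genes (76.9%) and in 41.1% of all 27025 genes. Whether a start was used in these cells was not considered. The Insig2 boxes lay in the window of start 121332589, whose transcript was listed at 0 in all libraries. The Pmvk box lay in that of start 89454541, while the main Pmvk transcript starts at 89459118. The antioxidant response element stood in 4 of 35 windows (11.4%) and in 12.4% of all windows, in those of Mvk, Pmvk, Hsd17b7 and Dhcr7. The Pmvk match lay in the window of start 89459571, whose transcript held 7.76% of counts in caNrf2 and 9.10% in ctrl. The Dhcr7 match lay in that of start 143830214. The Dhcr7 transcript with 88.5% of counts in caNrf2 and 90.4% in ctrl starts at 143829626. The Mvk window also held 5 NF-Y boxes. The Insig1 window held 1 NF-Y box and the printed Insig2 window no match to any of the 3 motifs. A match is a description of letters and not of binding. Only these letters within these windows were sought, so a window without a match cannot be said to lack a site.

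**Figure D2:**
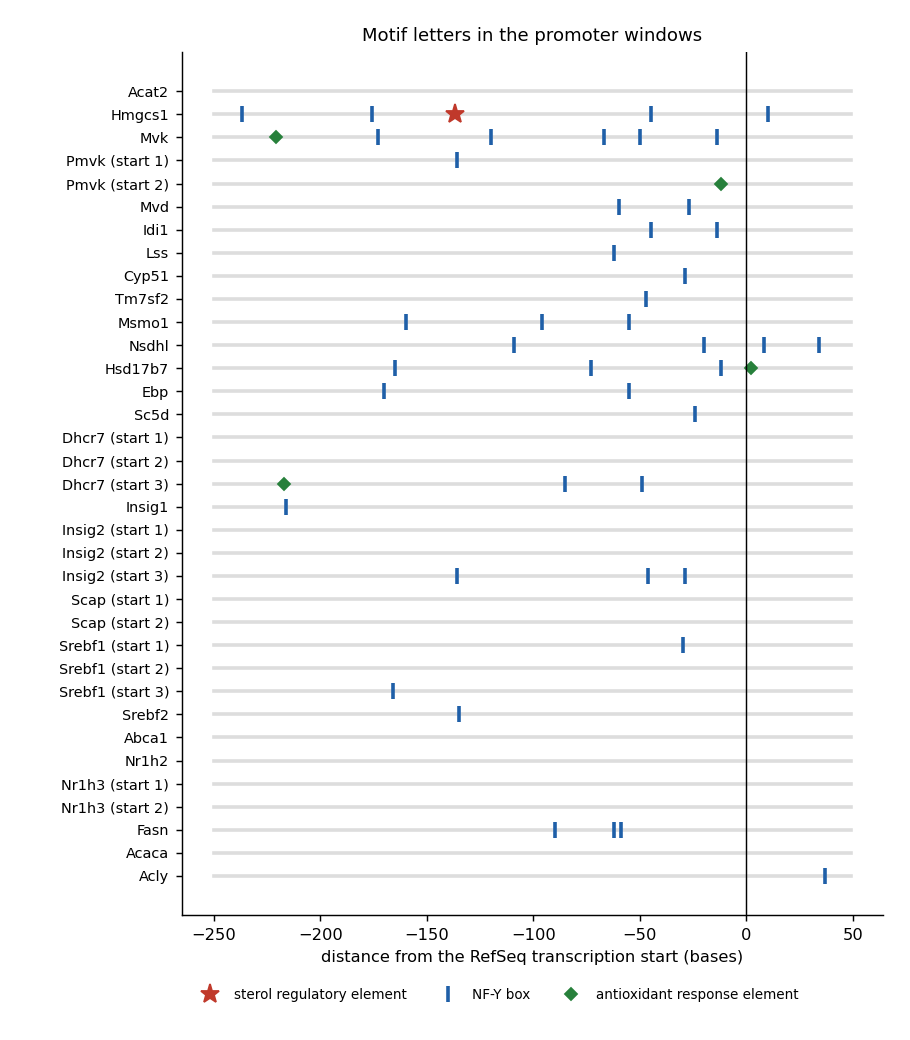
Matches to 3 motifs in the promoter windows of the 26 genes with an entry, 1 line per window, with distance from the RefSeq transcription start in bases on the horizontal axis. The red star marks the sterol regulatory element, in the Hmgcs1 window at -137, blue ticks mark NF-Y boxes, found in 21 of 35 windows, and green diamonds mark antioxidant response elements.

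Of the 18 enzymes of cholesterol synthesis 8 were called lower, none was higher and 10 were not called. The share called lower was 44.4%, against 9.03% of all genes tested. DESeq2 called 10 lower and none higher. All 18 had a negative log2 fold change, so none was higher at an unadjusted p under 0.05 either, with a median of -0.32 and a range of -0.62 to -0.061, while 50.4% of all genes tested had a negative one. Their summed level was 2514, 2096 and 2357 CPM in caNrf2 libraries 1 to 3, against 3304, 3005 and 2788 CPM in ctrl libraries 1 to 3. Each caNrf2 sum was below each ctrl sum, and the means of 2323 ± 211 CPM in caNrf2 and 3032 ± 259 CPM in ctrl (SD, n = 3 each) gave a ratio of 0.766. The caNrf2 libraries were below the ctrl libraries without overlap for 13 of the 18 enzymes, against 20.1% of all genes tested. For all 18 enzymes caNrf2 replicate 2 was the lowest of its group, caNrf2 replicate 1 was the highest for 15, ctrl replicate 1 was the highest of its group for 11 and ctrl replicate 3 the lowest for 13. Without caNrf2 replicate 2, 2 of the 18 were called lower, without ctrl replicate 1, 4, and without ctrl replicate 2, 5. Without replicate 1 of both groups, 9 were called lower.

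In the mevalonate arm 3 of 7 enzymes were lower. Hmgcs1 (ENSMUSG00000093930, chromosome 13, 119690462 to 119708086, GRCm38), the synthase of HMG-CoA at the head of the pathway, had 351, 296 and 341 CPM in caNrf2 libraries 1 to 3, against 580, 480 and 464 CPM in ctrl libraries 1 to 3. Its groups did not overlap, and the fold was 0.649 (log2 fold change -0.62, SE 0.11, edgeR adjusted p = 0.00504). Fdps (ENSMUSG00000059743, chromosome 3, 89093592 to 89101967), which makes farnesyl pyrophosphate, had 265, 208 and 238 CPM in caNrf2 libraries, against 336, 337 and 304 CPM in ctrl libraries. The highest caNrf2 library was below the lowest ctrl library, at 0.727-fold (log2 fold change -0.46, SE 0.10, edgeR adjusted p = 0.0144). Mvd, which decarboxylates mevalonate pyrophosphate, had 67.0, 51.9 and 62.6 CPM in caNrf2, against 75.0, 78.5 and 78.0 CPM in ctrl. That was 0.784-fold without overlap (edgeR adjusted p = 0.0336). Mvd lost its call without ctrl 1 (-0.38), ctrl 2 (-0.34), ctrl 3 (-0.35), caNrf2 2 (-0.26) or caNrf2 3 (-0.38), these being log2 fold changes, and it kept a negative one in each.

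The other 4 enzymes of the arm were not called. Acat2, which joins acetyl-CoA units, averaged 120 CPM in caNrf2 and 141 CPM in ctrl, and its groups did not overlap (edgeR adjusted p = 0.0877). Mvk, mevalonate kinase, averaged 60.4 CPM in caNrf2 and 73.2 CPM in ctrl and also did not overlap (edgeR adjusted p = 0.102). Pmvk, which adds the second phosphate, averaged 39.5 CPM in caNrf2 and 48.0 CPM in ctrl (edgeR adjusted p = 0.124). Idi1, the isomerase of isopentenyl pyrophosphate, averaged 202 CPM in caNrf2 and 258 CPM in ctrl (edgeR adjusted p = 0.107), with the ctrl libraries ranging from 213 to 311 CPM. Without caNrf2 1, Mvk and Pmvk were called lower at log2 fold changes of -0.40 and -0.41. Without replicate 1 of both groups they were called lower at -0.43 and -0.39. Idi1 was called lower without ctrl 3 at -0.47 and by DESeq2 at -0.35. Reads that Acat2 shares with its paralog Acat3 could be split between them; Acat3 itself had 0.436 CPM in caNrf2 and 0.559 CPM in ctrl.

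**Figure D3:**
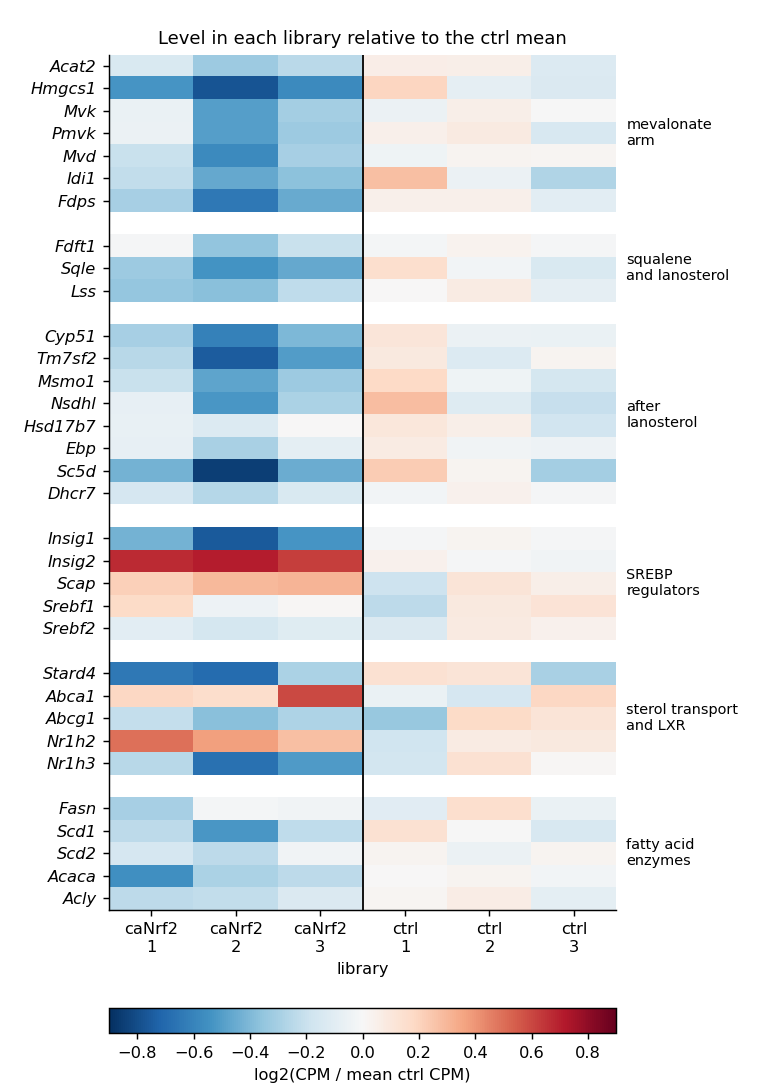
Level of each of the 33 genes in each library as log2 of its CPM over the mean ctrl CPM, with caNrf2 libraries left of the line and ctrl libraries right of it; blue is below and red above the ctrl mean. The column of caNrf2 replicate 2 holds the lowest caNrf2 value for all 18 enzymes, and Insig2 is the row with the deepest red in all 3 caNrf2 libraries.

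Between farnesyl pyrophosphate and lanosterol 2 of 3 enzymes were lower. Sqle, the epoxidase of squalene and a rate-controlling step, had 174, 150 and 159 CPM in caNrf2 libraries 1 to 3, against 242, 214 and 198 CPM in ctrl libraries 1 to 3. The groups did not overlap, at 0.737-fold (log2 fold change -0.44, SE 0.10, edgeR adjusted p = 0.0146). Lss, which closes the ring to lanosterol, had 161, 159 and 176 CPM in caNrf2, against 207, 216 and 195 CPM in ctrl, without overlap at 0.803-fold (edgeR adjusted p = 0.0256). Fdft1, the squalene synthase, averaged 113 ± 13.6 CPM in caNrf2 and 128 ± 2.39 CPM in ctrl (SD, n = 3 each), and was not called (edgeR adjusted p = 0.210). Its exons share 767 bases with Ctsb on the other strand, a lysosomal protease at 930 CPM in caNrf2 and 487 CPM in ctrl, and the strand setting of the counting is not given in the sources used here. Sqle lost its call without caNrf2 2 (log2 fold change -0.40). Lss lost it without ctrl 2 (-0.28), caNrf2 1 (-0.30), caNrf2 2 (-0.30) or replicate 1 of both groups (-0.30). Without caNrf2 1, Fdft1 was called lower (-0.28), as it was without replicate 1 of both groups (-0.29).

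After lanosterol 3 of 8 enzymes were lower. Cyp51, which demethylates lanosterol, had 284, 228 and 263 CPM in caNrf2 libraries 1 to 3, against 377, 336 and 334 CPM in ctrl libraries 1 to 3. The groups did not overlap, at 0.741-fold (log2 fold change -0.43, SE 0.10, edgeR adjusted p = 0.0178). Tm7sf2, a sterol reductase, had 18.7, 13.2 and 15.6 CPM in caNrf2, against 23.6, 20.3 and 22.6 CPM in ctrl, at 0.714-fold (edgeR adjusted p = 0.0281). Sc5d, a desaturase near the end of the pathway, had 79.2, 59.3 and 78.2 CPM in caNrf2, against 125, 108 and 86.3 CPM in ctrl, at 0.677-fold (log2 fold change -0.56, SE 0.15, edgeR adjusted p = 0.0305). In both genes the groups did not overlap, and the lowest ctrl library of Sc5d was ctrl 3. Tm7sf2 shares 532 exon bases on the same strand with Vps51 (27.3 CPM in caNrf2 and 25.4 CPM in ctrl), so that reads there may have been split. Cyp51 lost its call without ctrl 1 (-0.39) or caNrf2 2 (-0.36). Tm7sf2 lost it without ctrl 1 (-0.45), ctrl 3 (-0.47), caNrf2 2 (-0.38) or caNrf2 3 (-0.49). Sc5d lost it without ctrl 1 (-0.44), ctrl 2 (-0.55), caNrf2 2 (-0.44) or replicate 1 of both groups (-0.51), all as log2 fold changes.

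The other 5 enzymes after lanosterol were not called. Msmo1, a sterol methyl oxidase, averaged 177 CPM in caNrf2 and 222 CPM in ctrl without overlap (edgeR adjusted p = 0.0659). Msmo1 was called lower by DESeq2 and with no filter on low counts, at a log2 fold change of -0.33 in each. Nsdhl, its partner dehydrogenase, averaged 91.7 CPM in caNrf2 and 112 CPM in ctrl (edgeR adjusted p = 0.213). Hsd17b7, the ketoreductase of the same complex, averaged 106 CPM in caNrf2 and 110 CPM in ctrl and had the log2 fold change nearest 0 of the 18 enzymes, -0.061. Ebp, the sterol isomerase, averaged 43.8 CPM in caNrf2 and 48.5 CPM in ctrl, and Dhcr7, a reductase near the end of the pathway, 70.3 CPM in caNrf2 and 79.6 CPM in ctrl. Both did not overlap between groups, and their edgeR adjusted p was 0.236 for Ebp and 0.0953 for Dhcr7. The fold of the 18 enzymes thus ran from 0.649 for Hmgcs1 to 0.959 for Hsd17b7.

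Among the 5 genes of the SREBP system, the INSIG genes moved in opposite directions. Insig1 (ENSMUSG00000045294, chromosome 5, 28071363 to 28078662), which is itself a target of SREBPs, had 215, 172 and 200 CPM in caNrf2 libraries 1 to 3, against 287, 295 and 287 CPM in ctrl libraries 1 to 3. Every caNrf2 library was lower, at 0.676-fold (log2 fold change -0.57, SE 0.10, edgeR adjusted p = 0.00404). Insig2 (ENSMUSG00000003721, chromosome 1, 121304353 to 121332589), which retains SCAP like Insig1 but is not induced by SREBPs, had 66.2, 67.8 and 64.1 CPM in caNrf2, against 42.8, 41.3 and 40.8 CPM in ctrl. Every caNrf2 library was higher, at 1.59-fold (log2 fold change 0.67, SE 0.07, edgeR adjusted p = 0.000188). Hmgcs1, Fdps, Insig1 and Insig2 were the 4 of the 13 called genes that stayed called in all 16 alternatives tried. Per length, in TPM, which also divides by transcript length, Insig1 exceeded Insig2 by 2.32, 1.71 and 2.24 times in caNrf2 libraries, against 4.70, 5.02 and 5.21 times in ctrl libraries. The ratio averaged 2.09 ± 0.333 in caNrf2 and 4.98 ± 0.261 in ctrl (SD, n = 3 each). It restates the opposite changes of the 2 genes and is no further result.

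Scap and the SREBP genes themselves were not called. Scap, the escort, had 81.0, 85.7 and 86.4 CPM in caNrf2, against 61.5, 75.6 and 72.5 CPM in ctrl (1.21-fold, edgeR adjusted p = 0.0606), and the groups did not overlap. Srebf2, which encodes SREBP-2, had 260, 250 and 258 CPM in caNrf2, against 254, 295 and 286 CPM in ctrl (edgeR adjusted p = 0.348). Srebf1, which encodes SREBP-1, had 163, 141 and 146 CPM in caNrf2, against 123, 154 and 158 CPM in ctrl (edgeR adjusted p = 0.780). The groups of both SREBP genes overlapped. With replicate 1 of both groups left out, Scap was called higher at 0.21 on the log2 scale, and DESeq2 called it higher at 0.27. The log2 fold change of Srebf1 was 0.050 over all libraries, -0.065 without ctrl 1, -0.017 without caNrf2 1 and -0.12 without replicate 1 of both groups. The exons of Srebf1 share 109 bases with Rai1 on the other strand (71.1 CPM in caNrf2 and 81.1 CPM in ctrl).

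**Figure D4:**
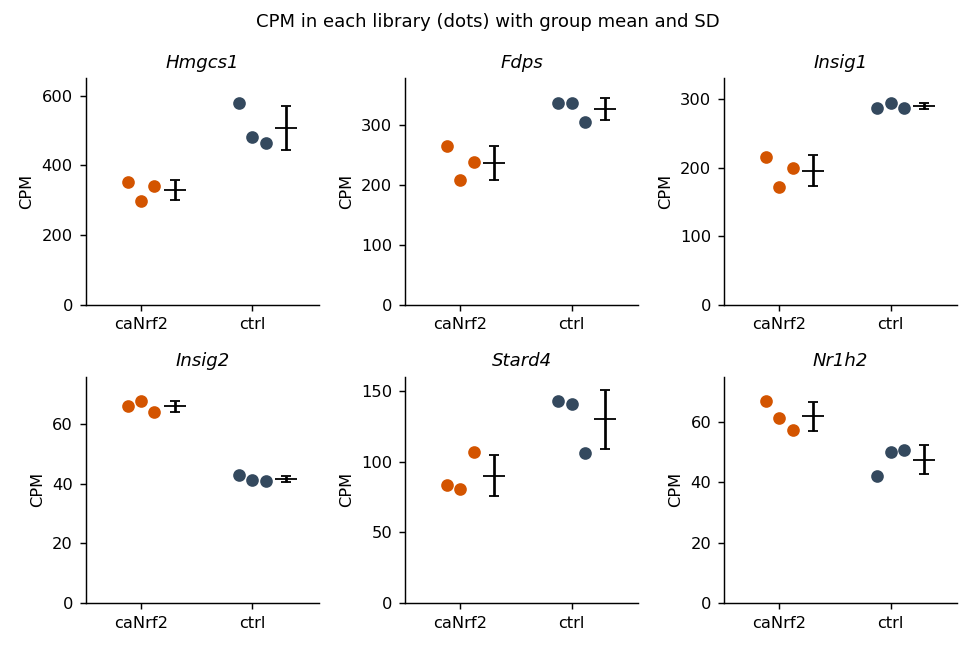
CPM in each library for 6 genes, 1 panel per gene, caNrf2 left and ctrl right, with replicates 1 to 3 from left to right in each group and the group mean and SD (n = 3) beside the dots. Hmgcs1, Fdps and Insig1 lie lower and Insig2 and Nr1h2 higher in every caNrf2 library, while for Stard4 the third caNrf2 library (107 CPM) lies above the third ctrl library (106 CPM).

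Of the 5 sterol transport and LXR genes 1 was lower and 1 was higher. Stard4, which carries cholesterol between membranes and is an SREBP-2 target, had 83.2, 80.5 and 107 CPM in caNrf2 libraries 1 to 3, against 143, 141 and 106 CPM in ctrl libraries 1 to 3. It was called lower at 0.694-fold (log2 fold change -0.53, SE 0.14, edgeR adjusted p = 0.0321), although the groups overlapped through replicate 3. Nr1h2 (ENSMUSG00000060601, chromosome 7, 44549616 to 44553951), the widely expressed LXR beta, had 67.0, 61.5 and 57.3 CPM in caNrf2, against 42.0, 50.1 and 50.6 CPM in ctrl. Its groups did not overlap, at 1.30-fold (log2 fold change 0.38, SE 0.10, edgeR adjusted p = 0.0224). Stard4 lost its call without ctrl 1 (-0.46), ctrl 2 (-0.47), caNrf2 1 (-0.47), caNrf2 2 (-0.46) or replicate 1 of both groups (-0.40). It also lost its call with replicate number as a block in the fit (-0.53). Nr1h2 lost its call without ctrl 1 (0.29), caNrf2 1 (0.32) or caNrf2 2 (0.38), all as log2 fold changes.

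The other LXR receptor and the exporters were not called. Nr1h3, LXR alpha, had 3.11, 2.32 and 2.60 CPM in caNrf2, against 3.30, 4.09 and 3.73 CPM in ctrl, without overlap (edgeR adjusted p = 0.0893). Abca1, an LXR target that exports cholesterol to apolipoproteins, had 128, 125 and 170 CPM in caNrf2, against 108, 101 and 128 CPM in ctrl (edgeR adjusted p = 0.125). Abcg1, an LXR target that exports cholesterol to lipoprotein particles, had 6.47, 5.80 and 6.20 CPM in caNrf2, against 5.92, 8.46 and 8.16 CPM in ctrl (edgeR adjusted p = 0.217). Both exporters overlapped between groups, and their log2 fold changes were 0.33 for Abca1 and -0.29 for Abcg1. Abcg1 was called lower without ctrl 1 (-0.45), and without replicate 1 of both groups Abcg1 (-0.48) and Nr1h3 (-0.67) were called lower. In TPM, Nr1h2 exceeded Nr1h3 by 20.1 ± 1.48 times in caNrf2 and by 12.1 ± 0.150 times in ctrl (SD, n = 3 each). Macrophages express LXR alpha and both exporters, and the macrophage and leukocyte markers above were higher in caNrf2. Their part in the levels of these genes was not tested.

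Of the 5 fatty acid enzymes 1 was lower. Acaca, the carboxylase that makes malonyl-CoA, had 118, 143 and 148 CPM in caNrf2 libraries 1 to 3, against 174, 177 and 171 CPM in ctrl libraries 1 to 3, at 0.785-fold without overlap (edgeR adjusted p = 0.0322). It lost its call without ctrl 1 (-0.36), ctrl 2 (-0.34), ctrl 3 (-0.36) or caNrf2 2 (-0.39), as log2 fold changes. Scd1, a stearoyl-CoA desaturase, averaged 327 CPM in caNrf2 and 410 CPM in ctrl, and Acly, which makes cytosolic acetyl-CoA, 478 CPM in caNrf2 and 548 CPM in ctrl. Their groups did not overlap, with edgeR adjusted p-values of 0.0733 for Scd1 and 0.132 for Acly. DESeq2 called Scd1 lower (log2 fold change -0.32). Fasn, the fatty acid synthase, averaged 530 CPM in caNrf2 and 571 CPM in ctrl (edgeR adjusted p = 0.516), and Scd2, a second stearoyl-CoA desaturase, 1621 CPM in caNrf2 and 1783 CPM in ctrl (edgeR adjusted p = 0.290). All 5 had a negative log2 fold change, with a median of -0.20, nearer 0 than the -0.32 of the 18 cholesterol enzymes; that difference was not tested.

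Levels per length put Scd2 and Fdps at the top and the 2 least expressed genes, Nr1h3 and Abcg1, far below. Scd2 averaged 535 ± 48.0 TPM in caNrf2 and 613 ± 18.7 TPM in ctrl, and Fdps 369 ± 28.7 TPM in caNrf2 and 530 ± 28.6 TPM in ctrl (SD, n = 3 each). Hmgcs1 came next by the mean over all libraries, at 186 ± 12.4 TPM in caNrf2 and 299 ± 35.5 TPM in ctrl. In caNrf2 alone Acly lay above Hmgcs1, at 216 ± 20.2 TPM. Nr1h3 averaged 3.35 ± 0.220 TPM in caNrf2 and 4.69 ± 0.484 TPM in ctrl, and Abcg1 3.10 ± 0.0985 TPM in caNrf2 and 3.98 ± 0.768 TPM in ctrl. The Srebf2 and Srebf1 genes lay next to each other with Srebf2 at 92.5 TPM in caNrf2 and 105 TPM in ctrl and Srebf1 at 89.3 TPM in caNrf2 and 95.2 TPM in ctrl. TPM are scaled within each library and were used for levels between genes, not for the tests.

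**Figure D5:**
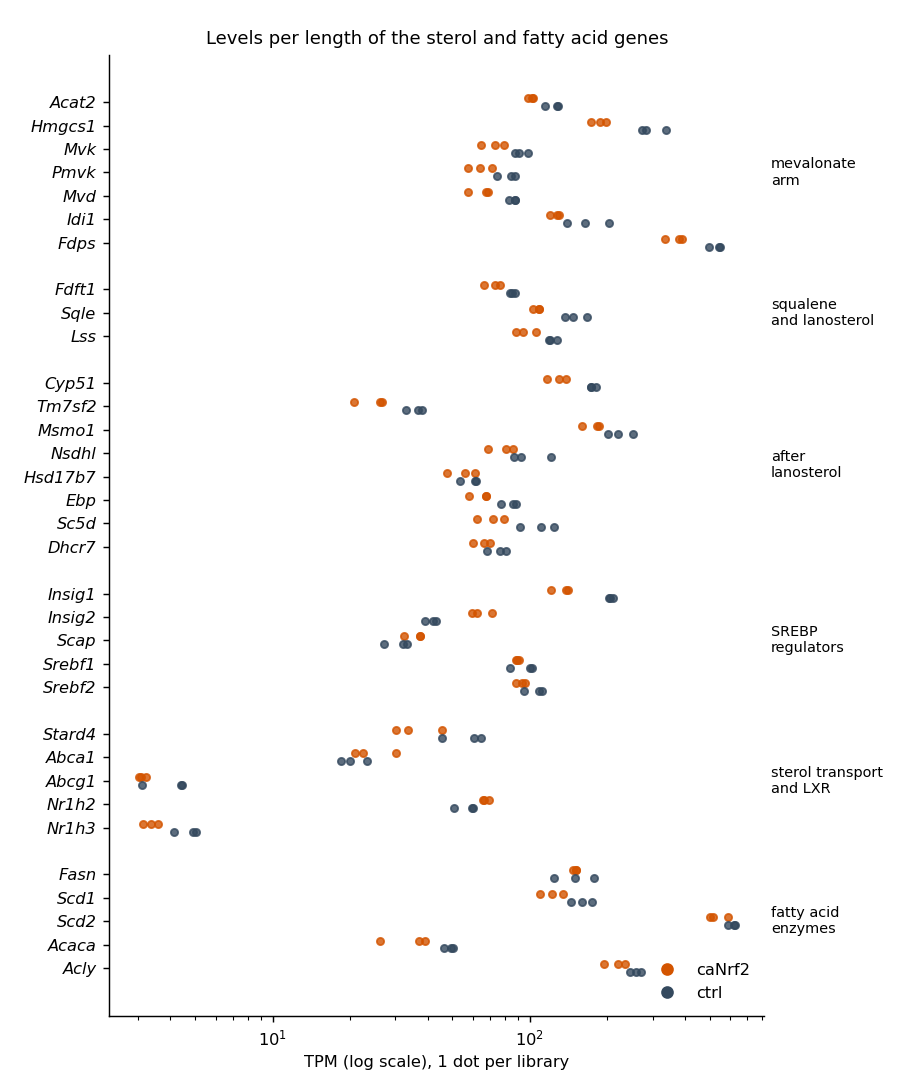
TPM of each of the 33 genes in each library, on a log axis, with 1 dot per library, orange for caNrf2 and dark for ctrl. Scd2 averages 535 TPM in caNrf2 and 613 TPM in ctrl at the right end, and Abcg1 averages 3.10 TPM in caNrf2 and 3.98 TPM in ctrl at the left end.

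Most of the genes were carried by 1 transcript. In 18 of the 33 genes a single transcript held at least 95% of the expected counts in both groups. Of 50 transcripts that held at least 10% of a gene in either group, 9 had groups that did not overlap, which was described and not tested. The same share over the transcripts of all genes was not computed, so whether 9 is many or few cannot be told. The differences below are given as values only. Some of the 9 were small, as for the main transcripts of Idi1 (99.2% in caNrf2 and 98.9% in ctrl), Nsdhl (99.8% in caNrf2 and 99.7% in ctrl) and Acaca (98.2% in caNrf2 and 97.1% in ctrl). An Acly transcript held 34.3% in caNrf2 and 41.6% in ctrl, and an Mvk transcript 18.3% in caNrf2 and 12.5% in ctrl. The main transcript of Ebp held 83.0 ± 1.96% of its counts in caNrf2 and 71.7 ± 5.97% in ctrl (SD, n = 3 each). A shorter transcript of Nr1h2 held 2.26%, 0% and 3.06% in caNrf2 libraries, against 9.65%, 5.17% and 18.4% in ctrl libraries. For Srebf1 the transcript from the upstream start, the side of SREBP-1a, held 60.0%, 61.4% and 56.6% of counts in caNrf2, against 66.3%, 58.5% and 64.4% in ctrl, and the transcript from the downstream start, the side of SREBP-1c, held 20.3%, 23.2% and 29.5% in caNrf2, against 17.3%, 29.1% and 22.8% in ctrl. Both overlapped between groups. Another Srebf1 transcript, ENSMUST00000134660, held 14.9%, 9.36% and 9.14% in caNrf2, against 8.91%, 6.57% and 6.60% in ctrl, without overlap. The Insig2 transcript that starts at 121328024, the start of the window printed above, held 87.3%, 85.0% and 87.0% of counts in caNrf2 libraries, against 82.0%, 84.4% and 88.5% in ctrl libraries. The 2 Insig2 transcripts that start more than 1000 bases upstream of it were listed at 0 in all libraries.

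A further sterol list held 25 genes, including Mmab, a gene of vitamin B12 described below. Of the 25, 24 were tested (Idi2 was at 0 in all libraries), and 6 were lower, 2 higher and 16 not called. That was 25.0% lower and 8.33% higher, against 9.03% and 12.5% of all genes tested. The median log2 fold change of the tested genes was -0.13. Scarb1, the receptor that exchanges cholesterol with lipoproteins, had 267, 255 and 236 CPM in caNrf2 libraries 1 to 3, against 148, 153 and 145 CPM in ctrl libraries 1 to 3. Its groups did not overlap, at 1.70-fold (log2 fold change 0.76, SE 0.08, edgeR adjusted p = 0.000287). Lbr, a nuclear membrane protein with sterol reductase activity, was lower at 0.737-fold (40.9 CPM in caNrf2 and 55.6 CPM in ctrl, edgeR adjusted p = 0.00255). Erg28, which in yeast holds the demethylation enzymes together, was lower at 0.682-fold (65.5 CPM in caNrf2 and 96.1 CPM in ctrl, edgeR adjusted p = 0.00594), and Smpdl3a, a phosphodiesterase that LXR induces in human macrophages, at 0.697-fold (edgeR adjusted p = 0.00913). Stard5, a cholesterol carrier, was higher at 1.23-fold (edgeR adjusted p = 0.0305). It lost its call without ctrl 1 (0.27), ctrl 2 (0.27), ctrl 3 (0.34), caNrf2 2 (0.32), caNrf2 3 (0.25) or replicate 1 of both groups (0.29), and with upper-quartile factors (0.26), as log2 fold changes.

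Mmab, which modifies vitamin B12, is a neighbour of Mvk and was named after its values were seen. Its start lies 242 bases from that of Mvk in the opposite direction, so that the 2 windows share 259 bases of the Mvk sequence above. Mmab had 35.2, 33.2 and 38.5 CPM in caNrf2, against 44.2, 46.7 and 51.5 CPM in ctrl, and was lower at 0.751-fold (edgeR adjusted p = 0.0108). Mvk itself was not called, at 0.825-fold. The other 2 lower genes of the list, Tmem97, a sterol-regulated membrane protein, and Cyp27a1, a mitochondrial sterol hydroxylase, were also named after their values were seen. Tmem97 averaged 44.3 CPM in caNrf2 and 55.6 CPM in ctrl (edgeR adjusted p = 0.0159). Cyp27a1 averaged 1.41 CPM in caNrf2 and 2.85 CPM in ctrl (edgeR adjusted p = 0.0232).

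Of 24 further fatty acid genes, 21 were tested (Scd3, Mlxipl and Thrsp were too low), and 4 were lower, 2 higher and 15 not called. That was 19.0% lower and 9.52% higher, against 9.03% and 12.5% of all genes tested. The median log2 fold change of the tested genes was -0.066. Lpin1, which makes diacylglycerol and also acts as a transcriptional cofactor, had 82.5, 67.3 and 90.2 CPM in caNrf2, against 34.7, 36.6 and 35.9 CPM in ctrl. It was 2.24-fold higher (log2 fold change 1.16, SE 0.11, edgeR adjusted p = 0.000121), and the groups did not overlap. Me1, the malic enzyme that supplies NADPH and a known Nrf2 target, had 209, 215 and 195 CPM in caNrf2, against 135, 125 and 121 CPM in ctrl (1.62-fold, edgeR adjusted p = 0.000517). Acsl3, which activates fatty acids, was lower at 0.708-fold (62.3 CPM in caNrf2 and 88.0 CPM in ctrl, edgeR adjusted p = 0.00457). Fads1, a desaturase of polyunsaturated fatty acids, was lower at 0.735-fold (204 CPM in caNrf2 and 277 CPM in ctrl, edgeR adjusted p = 0.00945). Elovl5, an elongase, was at 0.844-fold (edgeR adjusted p = 0.0378). The fourth lower gene, Acsl4, was named after its values were seen (87.5 CPM in caNrf2 and 107 CPM in ctrl, edgeR adjusted p = 0.0425). Elovl5 lost its call in every fit that left out 1 library, at log2 fold changes of -0.29 to -0.23, without replicate 1 of both groups at -0.22, and with no filter on low counts at -0.25.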

How the data were processed

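Total RNA of 6 cultures was sequenced, 3 caNrf2 and 3 ctrl, grouped by sample title. For each library the authors deposited values of 104129 transcripts from 43629 genes. Per the submitters' processing notes RSEM 1.2.21, CASAVA 1.8 and the build GRCm38 were used. Aligner, annotation release and strand setting: not given in the sources used here. Of the deposited columns, the expected counts per transcript (per the file headers) need not be whole because RSEM divides shared reads between transcripts. TPM were scaled by the authors by transcript length and to a common total per library. Shared reads make values of overlapping genes and paralogs less certain.

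The expected counts of a gene's transcripts were added up and rounded. The main test was edgeR's (version 4.0.16, R 4.3.3; filterByExpr with a minimum count of 10 and a minimum total of 15, TMM factors, two-sided quasi-likelihood F test without covariates, Benjamini-Hochberg adjustment over 15341 genes, threshold 0.05). The test was first tested on simulated data. CPM use TMM-scaled library sizes, standard errors come from the F statistic, and errors given with means are SD over 3 libraries. Depth limits weakly expressed genes most, since 1 read equals at most 0.0331 CPM. TPM were summed per gene. A reference table of gene names gave symbols to 42462 of the gene IDs; 20 symbols stand on more than 1 ID, and none of the 148 listed genes does. Gene coordinates were taken from the deposited columns and refer to GRCm38.

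The 33 genes and all lists were chosen with earlier results of these data known. Named are all 33 genes, Nfe2l2, Nqo1, up to 3 called genes of smallest adjusted p per direction from each further list, of each cell type list the most abundant gene and the called gene of smallest adjusted p, and genes that overlap the 33. Lep, Myf5, Mc5r (markers at 0 in some libraries) and Acat3 (a paralog) were named after their values were seen, as were the genes so marked. The alternatives were DESeq2 size factors, upper-quartile factors, no filter, a filter of 1 CPM in 3 libraries, DESeq2 1.42.0, limma-voom (limma 3.58.1), unrounded counts, posterior mean counts, each library left out, a replicate block and, added after the data were seen, replicate 1 of both groups left out.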

Additional observations from a re-analysis of the deposited data

How the results depend on the processing

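The 18 cholesterol synthesis enzymes had negative log2 fold changes in all 16 alternatives, but the calls depended on single libraries. With 1 library left out, 2 to 10 of the enzymes and 3 to 12 of the 33 genes were called lower and 1 to 2 of the 33 higher, while 823 to 1143 of all genes were lower and 1342 to 1755 higher. The causes were not tested beyond the smaller number of samples. The median log2 fold change of the 5 SREBP-system genes, 0.050, turned to -0.065 without ctrl replicate 1, -0.017 without caNrf2 replicate 1 and -0.12 without replicate 1 of both groups; it is the value of Srebf1, the middle gene, which turned in the same way. Upper-quartile factors moved the median of all genes to -0.040 and gave 1744 higher and 1750 lower genes, against 1917 and 1385, with 11 of the 33 genes still lower and 2 higher. DESeq2 called 14 of the 33 lower and 3 higher. Of 20 genes not called, 10 were called in at least 1 alternative.

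The replicate numbers of the 2 groups paired the libraries only in part by the check used. Deviations of same-numbered libraries from their group means correlated at 0.21, 0.21 and 0.095 across genes. For caNrf2 replicates 1 and 2 the same-numbered ctrl library correlated best, while caNrf2 replicate 3 correlated best with ctrl replicate 2 (0.112). Whether same-numbered libraries share a batch was not tested. With a replicate block, 11 of the 33 genes were lower and 4 higher, the 2 added higher genes being Scap and Abca1. Msmo1 joined the enzymes called lower, which made 9, and Stard4 was not called (edgeR adjusted p = 0.0696). Of all genes, 1330 were lower and 1888 higher.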
